A study of Mus musculus with 5 samples.

Results

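The mitochondrial ribosomal protein genes are the nuclear genes that encode the proteins of the ribosome inside mitochondria. Members were taken as the rows whose gene symbol consists of Mrpl or Mrps, a number and at most 1 further letter. This rule found 77 of the 19061 gene rows, 48 Mrpl genes of the large subunit and 29 Mrps genes of the small subunit. All 77 passed the filter on low values and entered the test. No member shared its values with another row.

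The libraries came from hearts of C57BL/6 mice with a calcineurin transgene, in a mouse line known as MHC-CnA. In that line an alpha myosin heavy chain promoter drives an active calcineurin, a phosphatase that enlarges the heart, in cardiac muscle cells. JIB-04, a compound that blocks the Jumonji enzymes which take methyl groups off histones, was given to the mice of 3 libraries at 50 mg/kg, and vehicle to those of 2 libraries. Dosing was 3 times a week from 4 weeks of age, and hearts were collected at postnatal day 158. Every library carried the transgene, so the comparison is between JIB-04 and vehicle within hypertrophic hearts, without a library of a wild-type heart. The labels do not say that each library was a separate animal. The p-values therefore measure only the spread between these libraries. In 1 title, that of JIB-04 replicate 3, the transgene's abbreviation differs by a letter, while the genotype label is the same as in all others.

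Mitochondria keep a small genome of their own, and all the proteins it encodes are subunits of the respiratory chain and ATP synthase. These proteins are made by the mitoribosome. Its ribosomal RNAs come from the mitochondrial genome, but its proteins are encoded in the nucleus, made in the cytosol and imported. Some have counterparts in bacterial ribosomes and others were added in the mitochondrial lineage. Heart muscle is rich in mitochondria and depends on oxidative phosphorylation. In humans, inherited variants of MRPL3, MRPL44 and MRPS22 are known causes of cardiomyopathy.

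The members do not form a cluster in the genome. They lay on 17 chromosomes, with 10 on chromosome 11 and 8 on chromosome 17. What many of them share is the way their starts are arranged. Of the 77 members, 27 (35.1%) started within 1000 bases of a gene that runs in the opposite direction, against 12.6% of the 14414 genes tested. Of these 27 members, 18 were large subunit genes and 9 small subunit genes. Over these members the distance to the partner's start ran between 8 and 935 bases with a median of 137 bases. It was under 250 bases for 22 of the 27 members. The arrangement is a property of the genome and not of the treatment. 1 such pair joined 2 members, Mrps11 and Mrpl46, one of each subunit, whose starts were 42 bases apart on chromosome 7. Other partners also belonged to mitochondria. Mrps12 lay 187 bases from Sars2, which charges mitochondrial serine tRNA. Mrpl43 lay 116 bases from Peo1, the mitochondrial DNA helicase, and Mrpl47 lay 308 bases from Ndufb5, a subunit of complex I. Other partners had cytosolic roles, such as Psma2 of the proteasome beside Mrpl32 (205 bases) and Fau, which encodes a cytosolic ribosomal protein, beside Mrpl49 (137 bases).

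**Figure D1:**
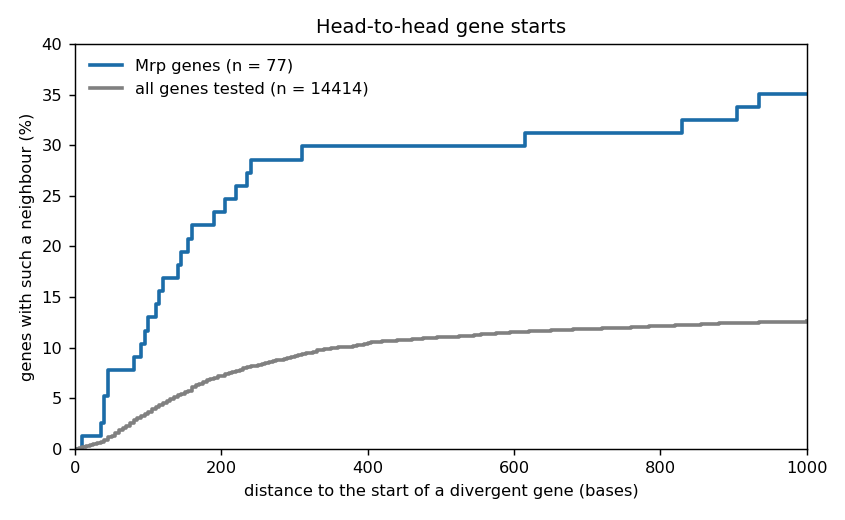
Share of genes (vertical axis, %) whose start lies within a given distance (horizontal axis, bases) of the start of a divergent gene, for the 77 Mrp genes and the 14414 genes tested. The line for the Mrp genes ends at 35.1% and that for all genes tested at 12.6%.

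Promoter sequence of 300 bases (250 before and 50 after the start) was taken from RefSeq on build GRCm38.p6. A promoter whose start lay within 100 bases of the start in the deposited files was found for 63 members, 40 of the large and 23 of the small subunit. The same rule matched 9952 of the genes tested. Both strands were searched for short exact motifs, namely the NRF1 motif (GCGC, any base, TGCGC), the ETS motif CCGGAAG, the YY1 motif AAGATGGC, the ERR motif CAAGGTCA, the GC box GGGCGG and the TATA box TATAAA. NRF1, the ETS family member GABP, YY1 and ERR are known regulators of nuclear genes for mitochondrial proteins. Matches of different motifs shared a base in 2 of the 63 promoters. The sequences below show 6 of these promoters, 5 with different combinations of the NRF1, ETS and YY1 motifs and that of Mrpl16, the member with the smallest p-value, which held none of them. Each reads 5′ to 3′ on the strand of its gene. Capitals mark matches to the NRF1, ETS, YY1 and TATA motifs in either orientation.
Mrps11: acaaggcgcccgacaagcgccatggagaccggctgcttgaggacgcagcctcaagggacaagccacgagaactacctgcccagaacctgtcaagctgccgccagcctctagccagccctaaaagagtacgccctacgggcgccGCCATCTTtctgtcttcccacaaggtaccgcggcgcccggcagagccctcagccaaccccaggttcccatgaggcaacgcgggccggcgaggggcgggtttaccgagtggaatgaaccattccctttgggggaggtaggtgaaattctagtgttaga
Mrps12: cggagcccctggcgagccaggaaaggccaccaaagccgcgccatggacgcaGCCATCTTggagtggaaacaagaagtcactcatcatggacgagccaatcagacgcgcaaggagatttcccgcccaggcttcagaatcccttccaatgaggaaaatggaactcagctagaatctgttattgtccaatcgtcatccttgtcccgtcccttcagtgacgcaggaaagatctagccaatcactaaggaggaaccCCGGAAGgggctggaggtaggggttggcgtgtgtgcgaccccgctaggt
Mrpl12: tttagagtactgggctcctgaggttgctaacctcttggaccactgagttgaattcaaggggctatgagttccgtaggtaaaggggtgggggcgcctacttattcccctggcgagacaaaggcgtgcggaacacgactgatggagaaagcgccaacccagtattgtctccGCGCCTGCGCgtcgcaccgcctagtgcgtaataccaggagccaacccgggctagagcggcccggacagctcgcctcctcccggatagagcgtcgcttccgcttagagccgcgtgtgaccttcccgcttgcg
Mrpl32: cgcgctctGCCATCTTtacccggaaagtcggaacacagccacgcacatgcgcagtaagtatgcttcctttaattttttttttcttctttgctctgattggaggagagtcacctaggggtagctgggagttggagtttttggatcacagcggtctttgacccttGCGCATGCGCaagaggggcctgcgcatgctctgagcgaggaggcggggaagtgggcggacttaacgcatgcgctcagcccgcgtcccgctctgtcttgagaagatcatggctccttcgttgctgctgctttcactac
Mrpl57: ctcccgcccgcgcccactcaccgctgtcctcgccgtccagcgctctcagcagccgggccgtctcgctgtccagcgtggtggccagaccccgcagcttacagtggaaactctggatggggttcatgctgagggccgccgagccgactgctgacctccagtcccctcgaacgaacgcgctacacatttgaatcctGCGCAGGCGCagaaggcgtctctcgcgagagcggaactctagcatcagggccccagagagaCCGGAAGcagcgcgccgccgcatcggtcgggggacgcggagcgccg
Mrpl16: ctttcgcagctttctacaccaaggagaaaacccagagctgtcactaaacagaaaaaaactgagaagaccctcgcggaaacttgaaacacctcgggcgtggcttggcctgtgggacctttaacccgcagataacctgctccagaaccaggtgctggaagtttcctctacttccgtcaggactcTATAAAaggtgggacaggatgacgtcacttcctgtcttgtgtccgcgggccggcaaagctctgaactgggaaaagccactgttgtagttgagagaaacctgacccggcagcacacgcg
The Mrps11 promoter (chr7:78782881-78783180, plus strand) held 1 YY1 match and reaches into the start of the divergent Mrpl46. The Mrps12 promoter (chr7:28741772-28742071, minus strand) held 1 ETS and 1 YY1 match. The Mrpl12 promoter (chr11:120484387-120484686, plus strand) held 1 NRF1 match, and that of Mrpl32 (chr13:14612988-14613287, minus strand) held 1 NRF1 and 1 YY1 match. The Mrpl57 promoter (chr14:57825989-57826288, plus strand) held 1 NRF1 and 1 ETS match, and that of Mrpl16 (chr19:11770165-11770464, plus strand) held only a TATA match among the marked motifs.

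Over the members, the ETS motif was found in 22 of 63 promoters (34.9%), against 17.6% of all 9952 promoters. The NRF1 motif was in 12 (19.1%, against 10.1%) and the YY1 motif also in 12 (19.1%, against 4.53%). At least 1 of these 3 motifs was in 39 of 63 member promoters (61.9%), against 28.7% of all. The YY1 motif was in 6 large and 6 small subunit promoters. The NRF1 motif was in 10 large and 2 small subunit promoters, of 40 and 23 searched. The ERR motif was in 1 member promoter, that of Mrps15 (1.59%, against 0.955%). The GC box was in 33 member promoters (52.4%, against 64.2%) and the TATA box in 4 (6.35%, against 7.56%). The median GC content was 58% over member promoters and 61% over all. A match is a stretch of letters, not an observed binding event. Members with an ETS match had a median log2 fold change, JIB-04 over vehicle, of -0.041, and those without of -0.066. Those medians were -0.060 and -0.055 for members with and without an NRF1 match, and -0.059 and -0.055 with and without a YY1 match.

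Libraries held 32152168 to 37002846 recovered reads. Together the 77 members took 0.329 to 0.346% of these, and a single member had between 301 and 6556 reads in a library. Counting error was not estimated on its own, and the standard errors given here hold it together with the spread between libraries. Values are given as deposited, in the column headed CPM, which was treated as a normalised signal because its sums differed between libraries. To compare one gene with another, CPM was divided by the length of the exons in kilobases. That length joins all exons of the GENCODE transcripts with a RefSeq counterpart, within the span of the file's gene. Exons that are not used in the heart would make it too long and the level too low. Ends of the gene in the file and in GENCODE differed by at most 100 bases for 46 of the 77 members, so the levels per kilobase of the others are approximate.

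Levels per kilobase differed 52.8-fold among the members, between 4.89 (Mrps25) and 258 (Mrpl42) CPM per kilobase as a mean of the 5 libraries. The median over members was 34.3 CPM per kilobase in JIB-04 and 36.6 in vehicle. Over all 5 libraries the median was 37.2 CPM per kilobase for the 48 large subunit genes and 32.3 for the 29 small subunit genes, and the ranges overlapped widely. The SD of the log2 level per kilobase was 1.05 between members, whereas the median member varied by an SD of 0.086 between the 5 libraries. Differences between distant members were therefore larger than the spread between libraries, although many neighbours in the order differed by less than that spread.

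Mrpl42, a protein of the large subunit without a bacterial counterpart, had the highest level. Its levels were 248 CPM per kilobase as a mean of the JIB-04 libraries and 274 in vehicle, and its ends in GENCODE and in the file lay within 100 bases of each other. Mrpl12 (115 in JIB-04, 117 in vehicle), which forms the stalk that engages translation factors, and Mrpl33 (102 in JIB-04, 104 in vehicle) were the next large subunit genes. Mrps21 (120 in JIB-04, 126 in vehicle), Mrps23 (99.9 in JIB-04, 105 in vehicle) and Mrps34 (56.2 in JIB-04, 53.6 in vehicle) led the small subunit genes. The levels of Mrps21, Mrps23 and Mrpl12 are approximate, since their ends in the file and in GENCODE lay more than 100 bases apart. Mrps23 also overlaps another gene on the same strand. At the lower end of the large subunit were Mrpl1 (6.32 in JIB-04, 6.19 in vehicle), of the stalk where used tRNAs leave, and Mrpl19 (5.49 in JIB-04, 5.79 in vehicle). Mrps11 (11.1 in JIB-04, 10.6 in vehicle), on the platform of the small subunit, and Mrps25 (4.78 in JIB-04, 5.06 in vehicle) were lowest of the small subunit. The joined exon lengths of Mrpl1, Mrpl19 and Mrps25 were 4170, 4991 and 6063 bases, against a median of 1053 over the members. That of Mrps11 was 1043 bases. How far these lengths set the low levels was not tested.

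**Figure D2:**
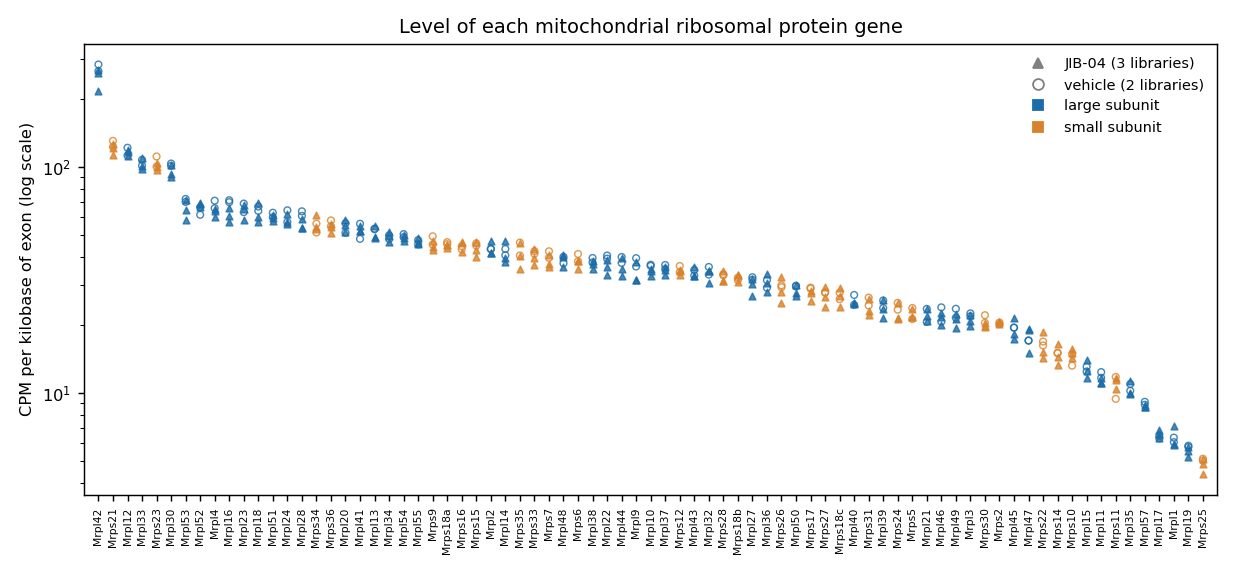
Level of each of the 77 members in CPM per kilobase of exon (vertical axis, log scale), sorted by the mean, with a triangle for each of the 3 JIB-04 libraries and an open circle for each of the 2 vehicle libraries. Mrpl42 stands highest at 258 and Mrps25 lowest at 4.89 as means over the libraries, and the libraries of a gene lie close together beside the differences between genes.

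Between JIB-04 and vehicle, no mitochondrial ribosomal protein gene changed at an adjusted p under 0.05 (limma on log2(CPM + 1), Benjamini-Hochberg over 14414 genes, threshold 0.05). Over all genes tested 0% were called. At an unadjusted p under 0.05, 1 member was lower, Mrpl16, and 0 were higher, against 2.51% of all genes tested lower and 3.93% higher. edgeR's quasi-likelihood test and DESeq2 on the recovered reads called 0 members too. edgeR called 0% of all genes and DESeq2 0.576%. The smallest adjusted p of a member was 0.748 (limma).

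Fold changes were small and lay mostly on one side. The members' median log2 fold change, JIB-04 over vehicle, was -0.055, against -0.0092 over all genes tested. Of the 77 members, 61 (79.2%) had a negative log2 fold change, against 53.1% of all genes tested, and 57 lay under the median of all genes. Among the 10563 genes with a mean of at least 5 CPM, 57.7% were negative and the median was -0.019, with 53 members under it. With plain CPM, computed from the recovered reads and their totals, 42 of 77 were negative, against 36.9% of all genes, and the medians were -0.0054 over the members and 0.038 over all genes. The members' median minus that of all genes was -0.046 as deposited, -0.043 with plain CPM and -0.036 against genes with a mean of at least 5 CPM. It was -0.077 without JIB-04 replicate 1, -0.014 without JIB-04 replicate 2, -0.069 without vehicle replicate 1 and -0.030 without vehicle replicate 2. Each extreme was modest, with Mrpl16 at -0.21 and Mrps10 at 0.092. From the 5th to the 95th percentile the members ran from -0.15 to 0.047, against -0.21 to 0.21 for the 7739 genes tested in the same range of levels. Standard errors were 0.059 to 0.12, and every member's 95% interval lay between -0.40 and 0.35. As these are bulk hearts, fewer cardiac muscle cells and less RNA per cell cannot be told apart.

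**Figure D3:**
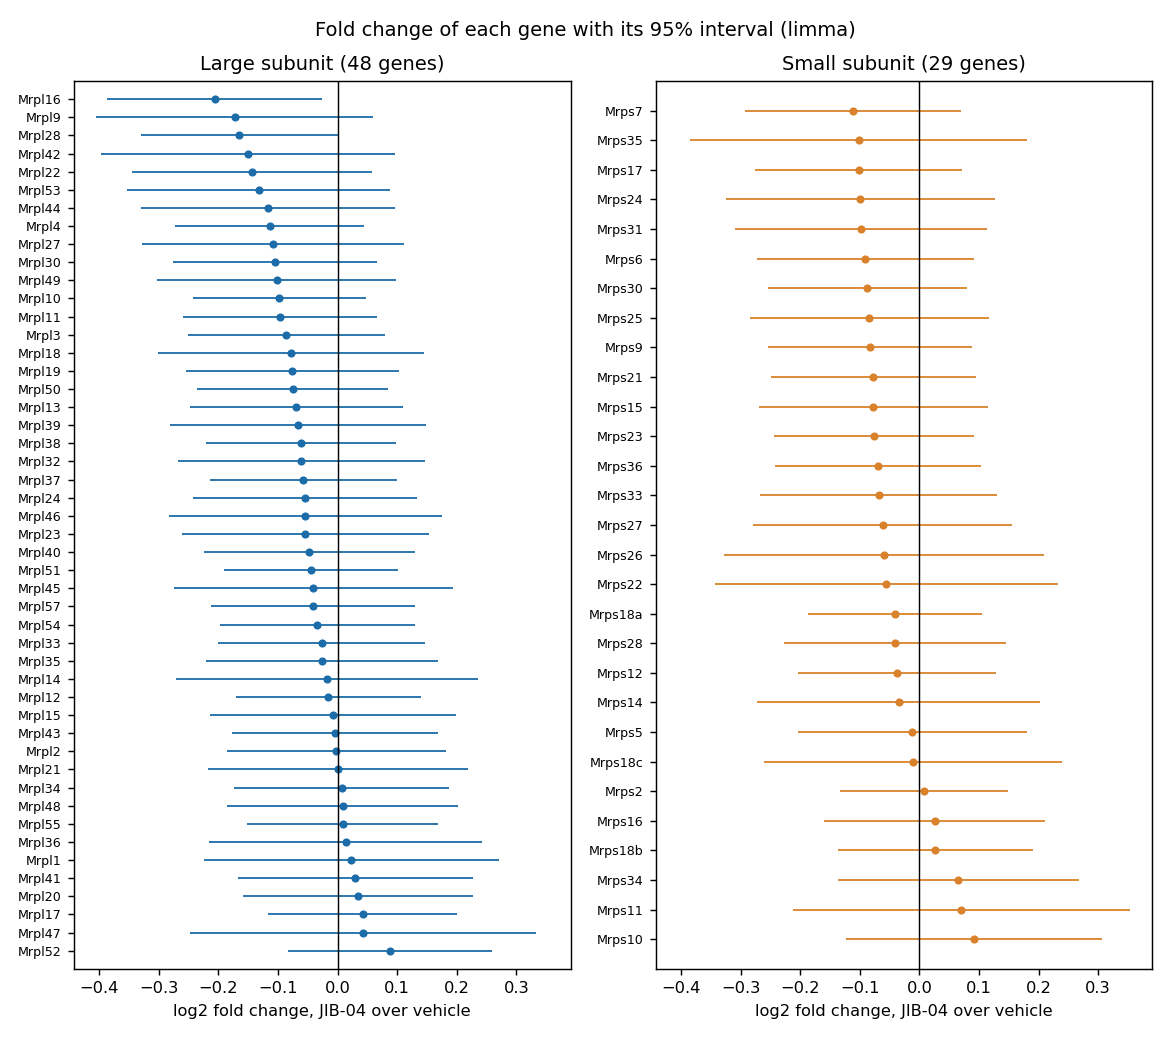
Log2 fold change of each member, JIB-04 over vehicle (horizontal axis), with its 95% interval from limma, for 48 large subunit genes (left) and 29 small subunit genes (right). All points lie between -0.21 and 0.092, and the interval of Mrpl16 is entirely below 0.

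The median hid a difference among the JIB-04 libraries. On the log2(CPM + 1) scale, with each gene's vehicle mean set to 0, the median member stood at 0.023, -0.12 and -0.068 in JIB-04 replicates 1, 2 and 3, against -0.032 and 0.032 in vehicle replicates 1 and 2. JIB-04 replicate 1 thus lay between the vehicle libraries and only replicates 2 and 3 lay below them. Over libraries this median averaged -0.054 ± 0.072 in JIB-04 (SD, n = 3), with an SD of 0.045 in vehicle (n = 2, mean 0 by construction), so the difference was smaller than the spread within JIB-04. Of the members, 43 had their lowest value in JIB-04 replicate 2 and 20 in replicate 3, but 3 in replicate 1, against 8 in vehicle replicate 1 and 3 in vehicle replicate 2. For all genes tested those shares were 29.5, 19.9 and 19.6% for JIB-04 replicates 2, 3 and 1, and 12.3 and 18.7% for vehicle. The highest value fell in JIB-04 replicate 1 for 25 members (32.5%, against 23.2% of all genes tested) and in vehicle replicate 2 for 38 members (49.4%, against 22.7% of all genes tested). Replicate 1 had 31 of 77 members below the vehicle mean, whereas replicates 2 and 3 had 67 and 65. The median log2 fold change was -0.093 without JIB-04 replicate 1, -0.021 without JIB-04 replicate 2, -0.082 without vehicle replicate 1 and -0.034 without vehicle replicate 2. Without JIB-04 replicate 1, 9 of the 77 members were lower at an unadjusted limma p under 0.05, against 1297 of the 14414 genes tested (9%). In that fit limma called 0 members after adjustment, against 0.201% of all genes tested.

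**Figure D4:**
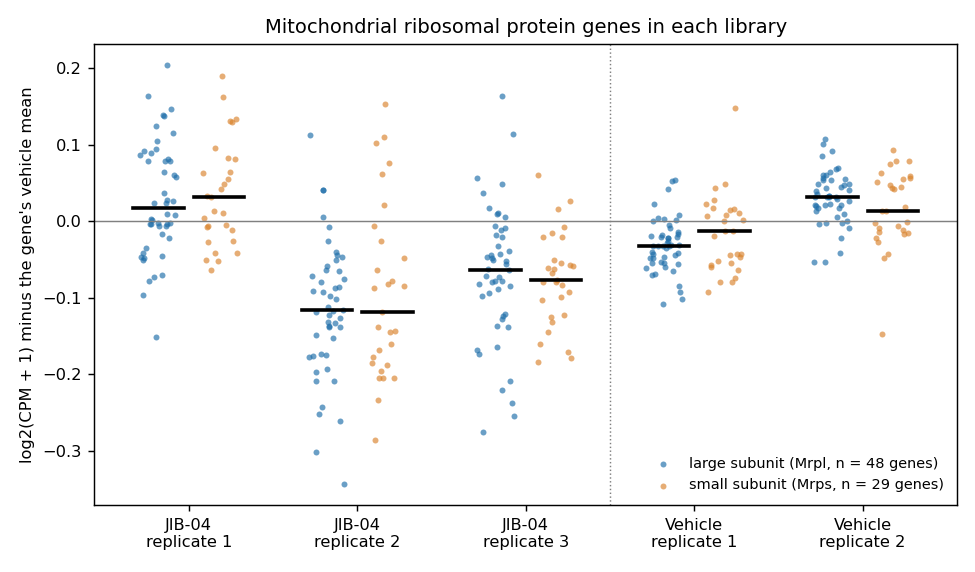
Log2(CPM + 1) of each member minus that gene's vehicle mean (vertical axis) in each library, with 1 point for each of the 48 large and 29 small subunit genes and a black bar at the median. The medians are above 0 in JIB-04 replicate 1 and below 0 in JIB-04 replicates 2 and 3, and the vehicle libraries mirror each other because 0 is their mean.

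Markers of heart and other cells differed between the same libraries. The 8 cardiac muscle markers had medians of 0.011, -0.37 and -0.081 relative to the vehicle mean in JIB-04 replicates 1, 2 and 3, against -0.090 and 0.090 in the vehicle libraries. The 9 detected macrophage and leukocyte markers had medians of 0.27, 0.78 and 0.90 in JIB-04, against 0.14 and -0.14 in vehicle, and the 7 fibroblast markers 0.045, 0.74 and 0.38 in JIB-04, against 0.074 and -0.074 in vehicle. For the 6 endothelial markers the medians were -0.16, 0.24 and -0.0032 in JIB-04, against -0.047 and 0.047 in vehicle. Those of the 4 tested skeletal muscle markers were 0.071, -0.062 and -0.042 in JIB-04, against -0.097 and 0.097 in vehicle. The 7 red blood cell markers, with pairs of globin genes that share identical values, differed most. Their medians were -1.77, -0.77 and -1.21 in JIB-04, against 0.31 and -0.31 in vehicle. All 7 (100%, against 12% of all genes tested) lay below both vehicle libraries in every JIB-04 library. Genes with identical values do not count separately here. None of these markers passed limma's adjusted threshold, and their part in the members' values was not tested. The defining cardiac muscle genes Myh6, Tnnt2 and Actc1 had 6147 CPM or more in every library.

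Large and small subunit genes had nearly the same values. Their median log2 fold changes were -0.054 (48 large subunit genes) and -0.062 (29 small subunit genes), a difference of 0.0074. In each subunit nearly the same share was negative, 38 of 48 (79.2%) and 23 of 29 (79.3%). Large minus small medians relative to the vehicle mean were -0.015, 0.0017 and 0.013 in JIB-04 replicates 1, 2 and 3, against -0.019 and 0.019 in vehicle. The JIB-04 values thus lay inside the vehicle range. Summed CPM of the large subunit was 2334, 2101 and 2178 in JIB-04, against 2253 and 2362 in vehicle. For the small subunit it was 1153, 1052 and 1069 in JIB-04, against 1109 and 1157 in vehicle. The ratio of these sums was 2.02 ± 0.020 in JIB-04 (SD, n = 3) and 2.04 ± 0.0069 in vehicle (SD, n = 2). Without vehicle replicate 1 the difference of the medians turned to -0.013.

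Members were also set apart by evolutionary origin. The 47 members with a bacterial counterpart had a median log2 fold change of -0.040, with 36 negative, and the 28 specific to mitochondria had -0.061, with 24 negative. Within the small subunit the 18 genes with a bacterial counterpart had -0.039 and the 10 specific genes -0.072. Within the large subunit these medians were -0.055 (29 genes) and -0.051 (18 genes). The remaining members are Mrpl55, which was left unclassed, and Mrps36. Head-to-head members had a median of -0.047 (27 genes) and the others -0.060 (50 genes).

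In 9 of the 77 members (11.7%) every JIB-04 library lay below both vehicle libraries, against 12% of all genes tested. Of these, 7 were large subunit genes (Mrpl4, Mrpl10, Mrpl11, Mrpl16, Mrpl22, Mrpl28 and Mrpl57) and 2 carry small subunit symbols (Mrps17 and Mrps18a). In 1 member, Mrpl52, every JIB-04 library lay above both vehicle libraries (1.30%, against 10.7% of all genes tested). The share below was near that of all genes, so it is not a result about the members.

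Mrpl16, on chromosome 19 (chr19:11770415-11774946, plus strand), had the smallest p-value of the members. Its protein sits in the core of the large subunit beside the tRNA sites. Mrpl16 had 73.9, 63.9 and 67.7 CPM in JIB-04 replicates 1, 2 and 3, against 78.3 and 79.8 CPM in vehicle replicates 1 and 2. The groups did not overlap, and replicate 1 of JIB-04 was nearest to vehicle. Its log2 fold change was -0.21 (SE 0.075, 95% interval -0.39 to -0.026, limma adjusted p = 0.748, unadjusted p = 0.031). Its log2 fold change was -0.26 without JIB-04 replicate 1, -0.16 without JIB-04 replicate 2, -0.20 without JIB-04 replicate 3, -0.22 without vehicle replicate 1 and -0.19 without vehicle replicate 2. Only the first of these 5 fits gave an unadjusted p under 0.05, and the last 2 leave 1 vehicle library, assumed to vary like the JIB-04 libraries.

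The other large subunit genes with the smallest p-values below 0 were Mrpl28, Mrpl9 and Mrpl4. Mrpl28 had 62.5, 57.0 and 57.0 CPM in JIB-04, against 64.5 and 67.6 CPM in vehicle (log2 fold change -0.16, SE 0.069, limma adjusted p = 0.775). Mrpl9 had 60.3, 50.2 and 50.5 CPM in JIB-04, against 57.9 and 63.0 CPM in vehicle (log2 fold change -0.17, SE 0.097, limma adjusted p = 0.821). Mrpl4, which lines the tunnel through which the new protein leaves, had 83.3, 77.4 and 81.7 CPM in JIB-04, against 84.2 and 90.9 CPM in vehicle (log2 fold change -0.11, SE 0.067, limma adjusted p = 0.821). JIB-04 replicate 1 was the highest JIB-04 library for all 3, and for Mrpl9 it lay between the vehicle libraries.

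In the small subunit the smallest p-values below 0 belonged to Mrps7, Mrps17, Mrps30 and Mrps6. Mrps7, which nucleates the head of the small subunit in bacteria, had 53.7, 49.0 and 47.5 CPM in JIB-04, against 52.3 and 55.9 CPM in vehicle (log2 fold change -0.11, SE 0.076, limma adjusted p = 0.831). Mrps17 had 33.7, 30.4 and 32.9 CPM in JIB-04, against 34.9 and 34.6 CPM in vehicle (log2 fold change -0.10, SE 0.073). Mrps6, which shares bases with another gene on its strand, had 29.8, 27.4 and 29.7 CPM in JIB-04, against 29.8 and 32.0 CPM in vehicle. Only for Mrps17 of these were the groups apart.

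2 genes named for the small subunit encode proteins that structures place in the large one. Mrps30 had 32.5, 31.0 and 31.5 CPM in JIB-04, against 32.4 and 35.0 CPM in vehicle, with a log2 fold change of -0.087 (SE 0.070). Mrps18a had 38.9, 38.9 and 37.8 CPM in JIB-04, against 40.04 and 39.2 CPM in vehicle, with a log2 fold change of -0.040 (SE 0.061). Mrps36 encodes a protein now placed in the alpha-ketoglutarate dehydrogenase complex and not in the ribosome. It had 39.1, 35.5 and 37.7 CPM in JIB-04, against 38.2 and 40.5 CPM in vehicle. Moving Mrps30 and Mrps18a to the large subunit and leaving out Mrps36 gave a difference between the subunits of 0.0064, against 0.0074 with the symbols.

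Few members stood above 0. Mrpl52, a large subunit protein specific to mitochondria, had 28.1, 28.4 and 27.3 CPM in JIB-04, against 27.2 and 25.2 CPM in vehicle (log2 fold change 0.088, SE 0.072, limma adjusted p = 0.852). The groups were apart only narrowly. Mrpl17 (0.042), Mrpl20 (0.035) and Mrpl41 (0.030) followed in log2 fold change among the large subunit genes with the smallest p-values. In the small subunit Mrps10 had 17.7, 18.5 and 16.8 CPM in JIB-04, against 15.6 and 17.5 CPM in vehicle (log2 fold change 0.092, SE 0.090, limma adjusted p = 0.872), and the groups overlapped. Mrps34 (0.066), Mrps11 (0.070) and Mrps18b (0.027) followed. Mrps11 was read at 12.1, 11.8 and 10.8 CPM in JIB-04, against 12.3 and 9.80 CPM in vehicle. The 2 vehicle libraries of Mrps11 lay outside the JIB-04 range on both sides.

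Of the proteins at the factor-binding stalk, Mrpl10 had 55.3, 59.1 and 58.0 CPM in JIB-04, against 61.9 and 61.2 CPM in vehicle (log2 fold change -0.098, SE 0.061). Mrpl11, which sits at the stalk base, had 33.4, 31.7 and 31.7 CPM in JIB-04, against 33.5 and 35.6 CPM in vehicle (log2 fold change -0.096, SE 0.068). Both had all JIB-04 libraries below vehicle, by margins that limma did not call (adjusted p = 0.827 and 0.836). Mrpl12, which is anchored on Mrpl10, had 112.7, 105.7 and 109.6 CPM in JIB-04, against 106.2 and 115.0 CPM in vehicle, and its groups overlapped (log2 fold change -0.016, SE 0.065).

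At the exit of the tunnel, Mrpl23 had 37.7, 33.7 and 39.3 CPM in JIB-04, against 36.6 and 39.95 CPM in vehicle (log2 fold change -0.054). Mrpl45, which ties the ribosome to the inner membrane, had 52.0, 44.2 and 41.9 CPM in JIB-04, against 47.2 and 47.2 CPM in vehicle (log2 fold change -0.041, SE 0.098). JIB-04 replicate 1 was above both vehicle libraries for Mrpl45 and the other JIB-04 libraries were below. Mrpl32, whose maturation by the m-AAA protease is a step of ribosome assembly in yeast and mouse, had 26.6, 23.4 and 26.4 CPM in JIB-04, against 25.6 and 27.6 CPM in vehicle (log2 fold change -0.061).

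The 3 genes named above for human cardiomyopathy variants showed no call either. Mrpl3 had 60.9, 57.5 and 54.4 CPM in JIB-04, against 60.2 and 62.0 CPM in vehicle (log2 fold change -0.086, SE 0.069). Mrpl44 had 56.0, 50.0 and 46.5 CPM in JIB-04, against 53.4 and 56.8 CPM in vehicle (log2 fold change -0.12, SE 0.089). Mrps22 had 22.2, 17.0 and 18.1 CPM in JIB-04, against 20.2 and 19.4 CPM in vehicle (log2 fold change -0.055, SE 0.12). In all 3, replicate 1 was the highest JIB-04 library and the groups overlapped.

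Among the other small subunit genes, Mrps12, the counterpart of the bacterial protein that checks codon pairing, had 31.3, 29.6 and 31.0 CPM in JIB-04, against 30.5 and 32.5 CPM in vehicle (log2 fold change -0.038). Mrps2 was the steadiest of the named genes, with 42.6, 42.0 and 42.6 CPM in JIB-04, against 42.5 and 41.8 CPM in vehicle (log2 fold change 0.0076). Mrps14 had 32.4, 28.2 and 26.1 CPM in JIB-04, against 29.6 and 29.5 CPM in vehicle (log2 fold change -0.034). Mrps16 (0.026) stood slightly above 0. The paralogs Mrps18b and Mrps18c had log2 fold changes of 0.027 and -0.010, the second at 13.5, 14.6 and 12.1 CPM in JIB-04, against 13.9 and 13.0 CPM in vehicle. Mrpl42, the member with the highest level, had 177.8, 143.4 and 173.2 CPM in JIB-04, against 176.2 and 188.5 CPM in vehicle (log2 fold change -0.15, SE 0.10, limma adjusted p = 0.831). Only JIB-04 replicate 2 was well below the others.

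Other genes of mitochondrial translation also had negative medians, with 0 of each list called by limma. The 14 translation factors had a median log2 fold change of -0.092 with 11 negative. Gfm2, which takes the ribosome apart after termination, had 76.8, 73.6 and 72.3 CPM in JIB-04, against 76.9 and 85.1 CPM in vehicle, and the initiation factor gene Mtif3 had 23.1, 20.01 and 20.9 CPM in JIB-04, against 22.7 and 25.2 CPM in vehicle. The 20 mitochondrial aminoacyl-tRNA synthetase and related genes had a median of -0.080 with 17 negative. Among them Lars2, which charges leucine tRNA, had 80.8, 81.8 and 71.4 CPM in JIB-04, against 86.8 and 152.4 CPM in vehicle. 1 library, vehicle replicate 2, sets this gene's value. Pars2, for proline tRNA, had 6.18, 5.41 and 4.52 CPM in JIB-04, against 6.83 and 6.48 CPM in vehicle.

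The 24 tested assembly and ribosomal RNA modification factors had a median of -0.073 with 20 negative. Ngrn had 20.6, 21.2 and 19.97 CPM in JIB-04, against 22.4 and 25.3 CPM in vehicle. Noa1, a GTPase of ribosome assembly, had 19.5, 19.6 and 18.3 CPM in JIB-04, against 21.1 and 22.3 CPM in vehicle. The 6 mitoribosomal proteins with symbols outside the rule had a median of -0.039 with 4 negative. Dap3, a small subunit protein that binds GTP, had 64.1, 55.5 and 56.7 CPM in JIB-04, against 64.0 and 68.8 CPM in vehicle, and Aurkaip1 had 53.0, 46.6 and 47.5 CPM in JIB-04, against 51.0 and 52.0 CPM in vehicle. Relative to the vehicle mean, the medians of the translation factors, the synthetases and the assembly factors were 0.025, 0.010 and 0.033 in JIB-04 replicate 1, -0.16, -0.15 and -0.14 in JIB-04 replicate 2 and -0.13, -0.17 and -0.12 in JIB-04 replicate 3.

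The nuclear genes of oxidative phosphorylation, many of whose proteins assemble with the mitoribosome's products, had a median log2 fold change of -0.11 over 80 tested, with 78 negative (97.5%). Cox8b of complex IV had 164.9, 151.1 and 150.1 CPM in JIB-04, against 173.7 and 178.3 CPM in vehicle (log2 fold change -0.18, SE 0.067, limma adjusted p = 0.748). Uqcr11 of complex III had 245.3, 214.5 and 225.9 CPM in JIB-04, against 255.9 and 271.6 CPM in vehicle (log2 fold change -0.21, SE 0.078, limma adjusted p = 0.748). The genes of the cytosolic ribosome had the opposite sign, with a median of 0.053 over 79 tested and 8 negative (10.1%). In 30 of the 79 (38.0%, against 10.7% of all genes tested) every JIB-04 library was above both vehicle libraries, and limma called 0. Rpl12 had 171.8, 180.4 and 190.2 CPM in JIB-04, against 161.7 and 163.3 CPM in vehicle, and Rpsa had 521.1, 536.8 and 570.4 CPM in JIB-04, against 486.4 and 482.6 CPM in vehicle. The differences between the members and these lists were not tested.

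**Figure D5:**
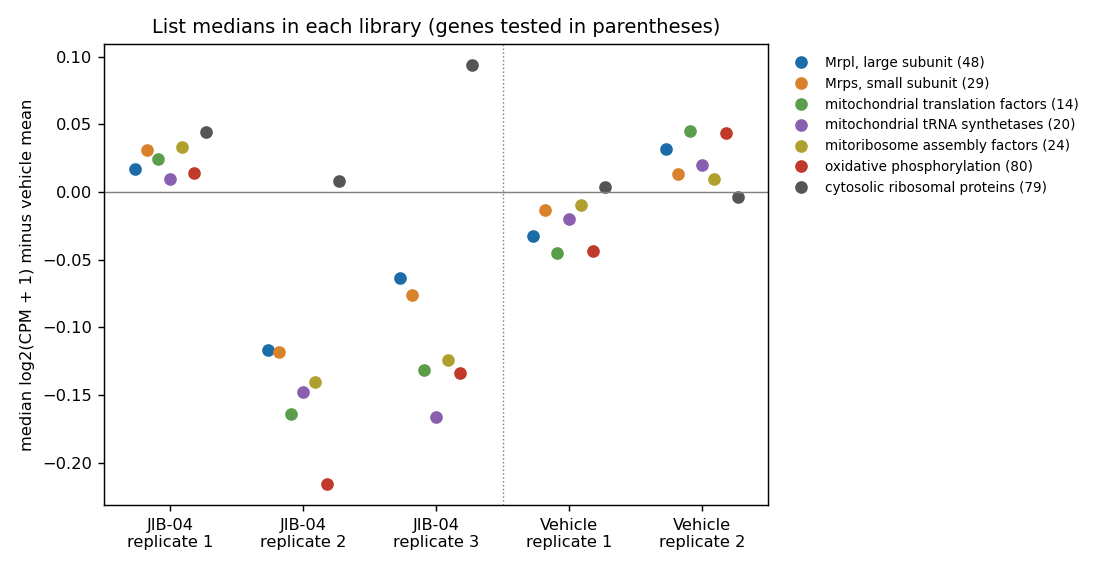
Median over each list of log2(CPM + 1) minus the gene's vehicle mean (vertical axis) in each library, with the number of genes tested in the legend. In JIB-04 replicate 2 oxidative phosphorylation stands at -0.22 beside -0.12 for both subunits of the mitoribosome, and cytosolic ribosomal proteins are above 0 in every JIB-04 library.

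The genes that start head to head with a member were described in the same way. The 27 partners include Mrps11 and Mrpl46, each the partner of the other. Of the 27 partners 25 were tested and 15 had a negative log2 fold change. Their median was -0.031, with a smallest limma adjusted p of 0.748. Mrps11 and Mrpl46, which share the first promoter shown above, had log2 fold changes of 0.070 and -0.054. Mrpl46 had 23.2, 20.5 and 22.2 CPM in JIB-04, against 21.2 and 24.6 CPM in vehicle. Vehicle replicate 2 was the lowest library for Mrps11 and the highest for Mrpl46. Sars2, beside Mrps12, had 11.7, 9.80 and 9.55 CPM in JIB-04, against 10.99 and 10.8 CPM in vehicle. Ndufb5, beside Mrpl47, had 214.1, 184.3 and 199.4 CPM in JIB-04, against 208.3 and 222.8 CPM in vehicle (log2 fold change -0.11), while Mrpl47 had 16.4, 13.1 and 16.7 CPM in JIB-04, against 14.9 and 14.8 CPM in vehicle (0.043).

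Values of 11 members may hold reads of an overlapping gene. Mrps6, Mrps23, Mrpl21 and Mrpl53 overlap a gene on the same strand. Mrps25, Mrps27, Mrpl19, Mrpl24, Mrpl41, Mrpl48 and Mrpl49 overlap one on the opposite strand, and whether counting used the strand is not given in the sources used here. Mrpl23, Mrpl48 and Mrps36 have pseudogenes in the GENCODE annotation, to which some of their reads could be assigned.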

How the data were processed

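The 5 libraries of mouse heart RNA were made with a stranded mRNA kit after Trizol extraction, per the labels' protocols. Per the submitters' processing notes the genome build was mm10 and the tools included TopHat2 2.0.12, Picard 1.127, edgeR, Subread with featureCounts, and FastQC 0.11.2, with no stated role. The deposited column headed CPM was treated as a normalised signal, since its sums were 954981 to 1046902, and dividing by what 1 read is worth in a library gave whole numbers, within 0.01, for 100% of values, so reads were recovered (32152168 to 37002846 per library). A blank row was left out. Counting intervals were not computed: fold change intervals (95%) rest on the spread between libraries. For each gene limma drew this spread toward a trend fitted over all genes tested.

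The test was limma 3.58.1 (R 4.3.3) with a mean-variance trend on log2(deposited CPM + 1), which understates changes at low CPM, with Benjamini-Hochberg adjustment over the 14414 genes that edgeR 4.0.16 filterByExpr kept (minimum 10 reads, 15 in total). The fit had 3 residual degrees of freedom, and the trend over all genes added 3.71 prior degrees of freedom. Alternatives were edgeR's quasi-likelihood test, limma-voom and DESeq2 1.42.0 on recovered reads, other scalings, pseudocounts of 0.1 and 5, other filters, each library left out, and a replicate block. Limma, edgeR, limma-voom and DESeq2 were run on simulated data with 2-fold and 4-fold changes in either direction. Those changes are far larger than the members' fold changes, so that run cannot tell whether changes of the members' size would be called. Starts in the files count from 0 and 1 was added. Genes named were, per subunit and direction, the 4 with the smallest p, the 3 highest and 2 lowest per kilobase, 19 fixed by name, and 2 per other list. Mrpl22, Mrpl46, Mrpl47, Mrpl57 and the partner genes were named after their values were seen. The members and lists were chosen with earlier results of these data known. No batch is given in the labels.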

Additional observations from a re-analysis of the deposited data

How the results depend on the processing

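No member was called under any alternative. Over all genes, limma called 0 and edgeR 0, whereas DESeq2 called 83, and the count was 0 to 29 on leaving out 1 library, with the 29 found without JIB-04 replicate 1. The members' median log2 fold change stayed negative in all alternatives run, at -0.093 to -0.021 on leaving out 1 library. The difference between large and small subunit medians ran from -0.013 to 0.018 on leaving out 1 library, negative only without vehicle replicate 1, and was -0.0080 with means in place of medians.

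Signs of genes near 0 turned. Plain CPM changes the scale of whole libraries, and with it the median of all genes tested went from -0.0092 to 0.038. Why signs turned in the other fits was not tested. Plain CPM gave 0.036 for Mrpl12, 0.025 for Mrpl33, 0.011 for Mrpl45, 0.013 for Mrps12, 0.017 for Mrps14, 0.011 for Mrps18a and 0.039 for Mrps18c. For Mrps18c edgeR gave 0.0027 and DESeq2 0.0021. Ranges on leaving out 1 library were -0.068 to 0.070 for Mrpl1, -0.072 to 0.041 for Mrpl12, -0.034 to 0.10 for Mrpl20, -0.12 to 0.0076 for Mrpl23, -0.070 to 0.015 for Mrpl33, -0.078 to 0.14 for Mrpl41 and -0.13 to 0.023 for Mrpl45. They were -0.077 to 0.22 for Mrps11, -0.082 to 0.0066 for Mrps12, -0.12 to 0.034 for Mrps14, -0.070 to 0.057 for Mrps18c, -0.0037 to 0.019 for Mrps2 and -0.16 to 0.020 for Mrps22.

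Whether the replicate numbers pair the libraries cannot be told from 2 vehicle libraries, whose deviations from their mean mirror each other. Deviations of replicates numbered 1 correlated at -0.13 between the groups and those numbered 2 at -0.13. With the replicate number as a block, which leaves JIB-04 replicate 3 without a partner, 0 genes were called, the members' median was -0.046, and the log2 fold changes were -0.0052 for Mrpl20, 0.0072 for Mrpl33, 0.023 for Mrpl45, 0.034 for Mrps14 and 0.057 for Mrps18c. With 3 against 2 libraries, every member's interval still admits changes of over 0.1 on the log2 scale in at least 1 direction.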
